A study of Mus musculus with 27 samples.

Results

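The cholesterol and fatty acid synthesis module examined here is a list of 36 genes, which were taken by name from the 35604 genes of the expression table. It holds 26 synthesis genes, 18 of the sterol pathway and 8 of fatty acid synthesis and desaturation. The other members are 6 genes of SREBP control and sterol transport and 4 genes of sterol efflux and liver X receptor (LXR) control. All 36 were found, and 35 reached 1 TPM in at least 3 of the 27 libraries, which was the condition for a test. Mylip, the E3 ligase that degrades the lipoprotein receptor when LXR is active, never reached 1 TPM. Its highest value was 0.484 TPM, and it was listed at 0 in 19 libraries.

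The values come from polyadenylated RNA of primary splenic B cells of wild-type mice, in 9 groups of 3 libraries. Of these, 1 group held naive cells that had not been cultured. The others were cultured for 6 h or 24 h with an anti-CD40 antibody (clone HM40-3, 1 µg/mL), which stands in for T cell help. They received it alone, with IL-4 at 12.5 ng/mL, with IL-21 at 50 ng/mL, or with both cytokines. Every cultured group therefore shares anti-CD40 and serum-containing medium, so that culture and stimulation cannot be told apart in a comparison with naive cells. Serum also supplies sterol and fatty acid. The age and sex of the animals are not given in the sources used here, nor whether the 3 libraries of a group came from separate animals or cultures. P-values measure the spread between these libraries, which may be technical.

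Sterol synthesis runs from acetyl-CoA through mevalonate and farnesyl pyrophosphate to squalene, which is closed into a ring and trimmed to cholesterol. Fatty acid synthesis branches from the same precursor. Both sets of enzymes are induced by SREBP transcription factors, which SCAP carries out of the endoplasmic reticulum for activation when sterol is scarce and which INSIG proteins hold back when it is plentiful. LXR works in the opposite direction: bound by oxysterols, it induces the cholesterol exporters ABCA1 and ABCG1, and also Srebf1 and Fasn. B cells that prepare to divide need new membrane, and resting lymphocytes are known for low sterol synthesis.

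Promoter sequence was available for 28 of the 36 members in the RefSeq table of windows from 250 bases before to 50 bases after a start site, on build GRCm38.p6. No window was listed for Abcg1, Fads1, Fdft1, Fdps, Scd1, Scd2, Sqle and Stard4. Both strands were searched for 3 motifs. The sterol regulatory element TCACNCCAC, an SREBP site, was in 1.24% of all 32851 windows and in 1 of the 28 members, Hmgcs1. The CCAAT box, bound by the NF-Y partner of SREBP, was in 37.4% of windows and in 21 of 28 members. A direct repeat spaced by 4 bases, the LXR type of site (GGTNA, then 5 bases of any kind, then GGTNA), was in 0.718% of windows and in 3 members, Abca1, Fasn and Srebf1. The 28 members had 36 windows, and a member was counted if any of its windows matched. Its share is therefore not measured like that of single windows. A match is a description of the letters and was not tested for binding.

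The windows below are shown because Hmgcs1 and Idi1 carry the largest changes of the mevalonate genes, while Abca1, Srebf1 and Fasn share the direct repeat but moved in different directions. Sequences run 5′ to 3′ on the gene's strand. Capitals mark the motifs above, on either strand (CCAAT appears as ATTGG where it lies on the other strand); the 2 CCAAT boxes in Fasn that share bases appear as 1 run, CCAATTGG.
Hmgcs1, chr13:119690101-119690400, plus strand: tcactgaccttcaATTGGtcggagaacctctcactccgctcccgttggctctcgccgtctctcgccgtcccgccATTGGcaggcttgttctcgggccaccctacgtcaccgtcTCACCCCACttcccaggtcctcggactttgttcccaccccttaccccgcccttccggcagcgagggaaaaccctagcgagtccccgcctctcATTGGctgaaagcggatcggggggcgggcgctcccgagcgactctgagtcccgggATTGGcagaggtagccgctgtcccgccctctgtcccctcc
Idi1, chr13:8885356-8885655, plus strand: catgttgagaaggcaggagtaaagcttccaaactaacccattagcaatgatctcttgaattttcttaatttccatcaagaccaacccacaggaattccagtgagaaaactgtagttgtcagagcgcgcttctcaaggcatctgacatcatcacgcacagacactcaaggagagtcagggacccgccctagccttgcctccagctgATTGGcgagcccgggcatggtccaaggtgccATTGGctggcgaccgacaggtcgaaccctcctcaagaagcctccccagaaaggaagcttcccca
Abca1, chr4:53159846-53160145, minus strand: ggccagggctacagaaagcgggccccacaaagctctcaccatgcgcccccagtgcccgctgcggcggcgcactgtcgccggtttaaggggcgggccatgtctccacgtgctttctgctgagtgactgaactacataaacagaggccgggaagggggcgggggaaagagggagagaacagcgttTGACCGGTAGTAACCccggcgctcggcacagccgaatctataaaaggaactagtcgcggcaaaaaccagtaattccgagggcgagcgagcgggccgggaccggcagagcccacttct
Srebf1, chr11:60210422-60210721, minus strand: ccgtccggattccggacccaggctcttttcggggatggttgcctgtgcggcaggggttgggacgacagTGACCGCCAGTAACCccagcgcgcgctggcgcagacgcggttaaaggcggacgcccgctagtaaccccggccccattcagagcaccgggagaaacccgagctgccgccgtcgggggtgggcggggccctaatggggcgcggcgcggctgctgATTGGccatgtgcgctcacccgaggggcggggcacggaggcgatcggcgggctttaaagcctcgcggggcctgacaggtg
Fasn, chr11:120824498-120824797, minus strand: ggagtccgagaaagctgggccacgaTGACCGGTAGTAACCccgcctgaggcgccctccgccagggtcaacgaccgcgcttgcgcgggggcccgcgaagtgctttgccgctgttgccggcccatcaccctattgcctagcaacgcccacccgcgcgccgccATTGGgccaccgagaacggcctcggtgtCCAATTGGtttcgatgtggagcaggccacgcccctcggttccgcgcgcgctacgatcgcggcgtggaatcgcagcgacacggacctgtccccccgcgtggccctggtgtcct
In Hmgcs1 the sterol regulatory element begins at position -137 from the start site and lies among 4 CCAAT boxes, of which the nearest begin at -176 and -45. Idi1 has CCAAT boxes at -45 and -14 and no match to the other motifs. The repeat begins at -67 in Abca1, at -182 from an internal start site of Srebf1 and at -225 in Fasn. The matched letters, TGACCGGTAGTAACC, are identical in Abca1 and Fasn.

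Values are TPM, a relative abundance scaled by transcript length and by the library's total. Depth per library is unknown, so no counting error can be given for low values. Differences are of mean log2(TPM + 1), on which changes of genes with low TPM come out too small. They are given ± standard error with n = 3 libraries per group. The standard error uses a spread shared by all 9 groups (18 residual degrees of freedom), not that of the compared groups alone. A widely spread group can therefore differ with a small standard error. Members were called higher or lower at an adjusted p below 0.05 over 12147 tested genes. The 6 B cell markers checked were present in each group and summed to 406 to 4150 TPM per library, lowest with anti-CD40 and IL-21 at 6 h. T cell markers summed to at most 5.97 TPM. Markers of macrophages and monocytes (8 genes) summed to 55.8 to 79.5 TPM in naive libraries and to 1.29 to 10.4 TPM in cultured ones, and those of erythroid cells and platelets (5 genes) to 694 to 1300 TPM and 7.04 to 155 TPM. In 4 groups a library stood apart by a low share of mitochondrial transcripts. Mitochondrial transcripts made up 5.5% of naive replicate 1 against 12.7% and 13.5% in the other naive libraries, and 7.89% of replicate 1 in the 24 h IL-4 group against 11.6% and 11% in the others. The share was 6.91% in replicate 3 of the 6 h IL-4 group against 10.2% and 10.6%, and 7.27% in replicate 3 of the 6 h IL-21 group against 10.9% and 10.2%. Replicate 1 of the 24 h IL-4 group also had less ribosomal protein RNA, 23.2% against 29.5% and 29.9%. Results that use these libraries are given without them where their counts moved by more than 1.5 times; the fit without 2 libraries left out replicate 1 of the naive and 24 h IL-4 groups.

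Library values of the members that carry the results follow, always in the order of replicates 1, 2 and 3. Hmgcs1 (chr13:119690379-119708260), which makes HMG-CoA, stood at 33.4, 17.3 and 17.4 TPM in naive cells. After 6 h it stood at 119, 121 and 144 TPM with anti-CD40, 187, 202 and 222 TPM with IL-4 added, 67.9, 69.7 and 92.0 TPM with IL-21 added and 103, 119 and 106 TPM with both. At 24 h these groups stood at 54.3, 45.9 and 68.0 TPM, 132, 57.4 and 41.0 TPM, 70.2, 95.2 and 60.6 TPM, and 81.5, 95.0 and 89.8 TPM. Every cultured library exceeded the naive ones, the IL-4 group at 6 h was highest, and the 24 h IL-4 group spread most widely, with replicate 1 on top.

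Idi1 (chr13:8885501-8892451), the isomerase that makes the activated isoprene unit, stood at 22.3, 13.9 and 21.2 TPM in naive cells. By 6 h it reached 159, 175 and 169 TPM with anti-CD40, 276, 314 and 303 TPM with IL-4, 110, 130 and 129 TPM with IL-21 and 172, 191 and 206 TPM with both. After 24 h it stood at 66.2, 58.6 and 65.5 TPM with anti-CD40, 282, 343 and 456 TPM with IL-4, 93.2, 96.8 and 107 TPM with IL-21 and 166, 170 and 174 TPM with both. The IL-4 groups were highest at both times without overlap, and both groups with IL-21 but no IL-4 lay below the groups with both cytokines.

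Sqle, the epoxidase that opens the squalene branch, stayed low: 0.289, 0 and 0.0675 TPM in naive cells. At 6 h it stood at 0.608, 1.42 and 0.302 TPM with anti-CD40, 1.08, 0.973 and 0.192 TPM with IL-4, 1.04, 1.34 and 1.15 TPM with IL-21 and 1.74, 0.966 and 0.921 TPM with both. By 24 h it stood at 1.18, 0.275 and 0.446 TPM, 2.02, 1.02 and 0.563 TPM, 2.92, 1.97 and 1.22 TPM, and 1.38, 2.76 and 2.32 TPM in the same order. The 6 h groups overlapped each other, and at 24 h every library with IL-21 exceeded those with anti-CD40 alone.

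Cyp51 (chr5:4081145-4104746), the lanosterol demethylase, stood at 19.0, 15.3 and 19.1 TPM in naive cells. After 6 h it reached 92.8, 88.2 and 66.7 TPM with anti-CD40, 128, 109 and 80.2 TPM with IL-4, 54.6, 60.2 and 45.9 TPM with IL-21 and 78.5, 63.0 and 55.7 TPM with both. At 24 h it stood at 47.2, 39.0 and 51.8 TPM, 112, 103 and 94.9 TPM, 58.2, 60.4 and 48.9 TPM, and 74.7, 75.7 and 73.3 TPM in the same order. The IL-4 group lay above all others at 24 h, the group with both cytokines came next, and neither overlapped its neighbours.

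**Figure D1:**
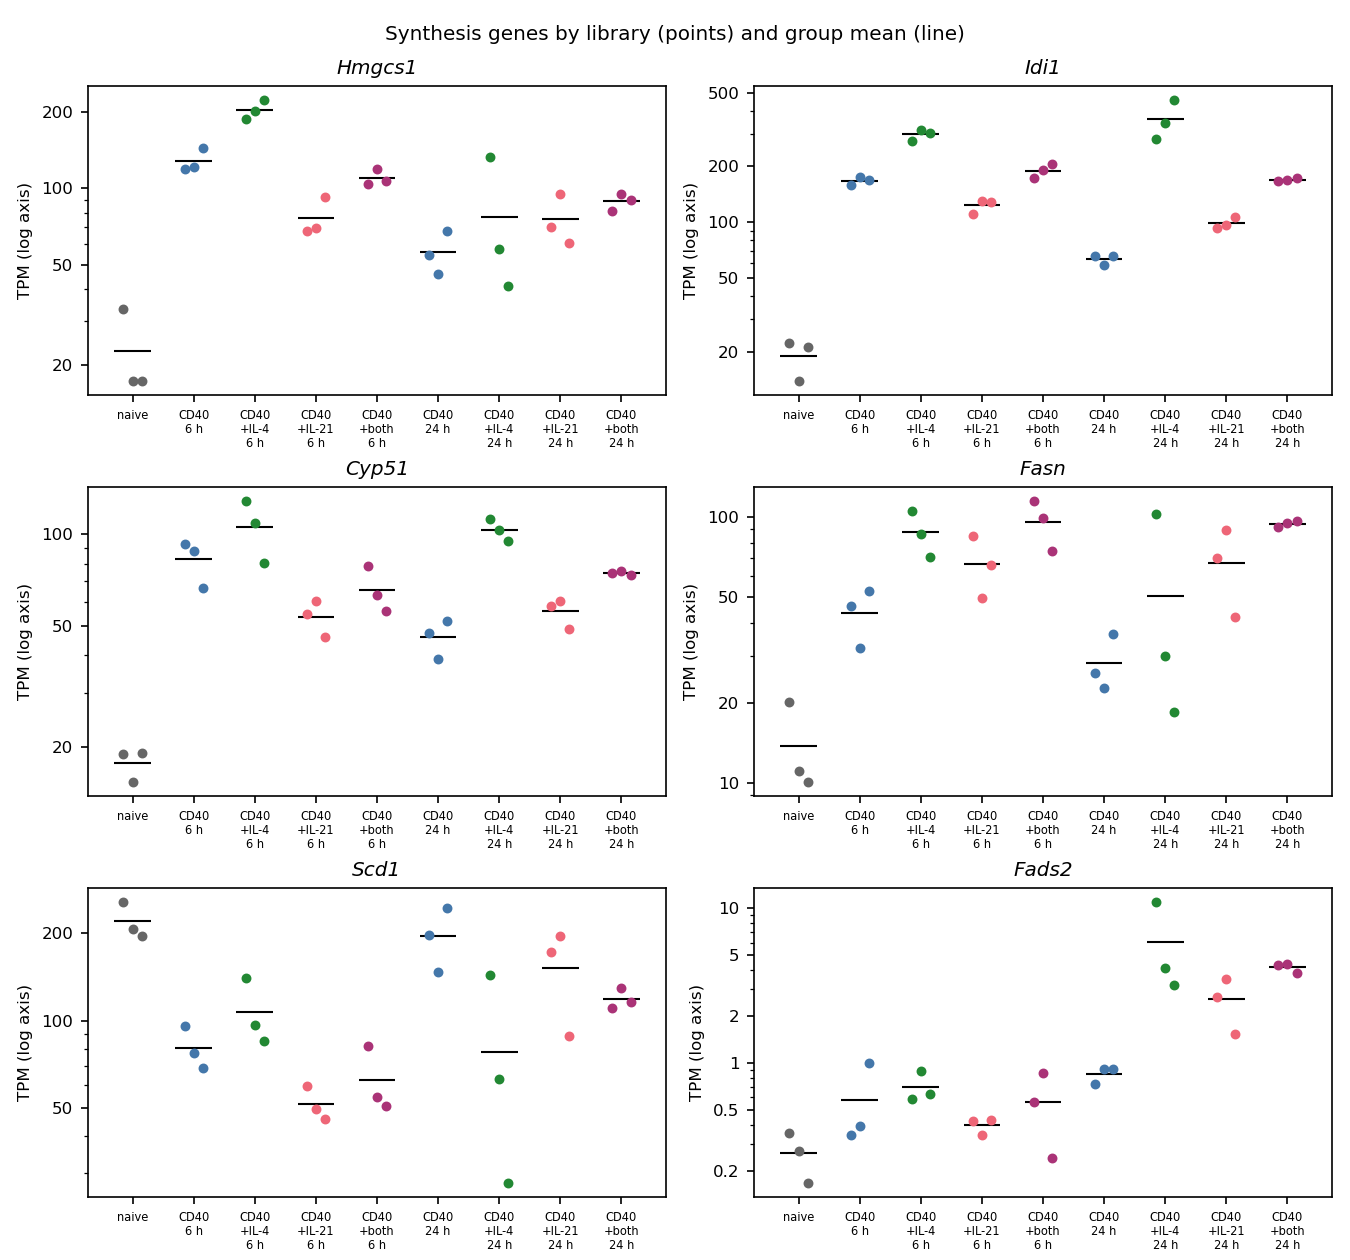
TPM on log axes for 6 synthesis genes in the 9 groups, with points for libraries and lines for group means. Idi1 in the IL-4 groups lay between 276 and 456 TPM at both times, while Hmgcs1, Fasn and Scd1 spread widely in the 24 h IL-4 group.

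Fasn (chr11:120805846-120824547), the fatty acid synthase, stood at 20.2, 11.2 and 10.1 TPM in naive cells. By 6 h it stood at 46.3, 32.0 and 52.5 TPM with anti-CD40, 105, 86.4 and 70.7 TPM with IL-4, 84.5, 49.5 and 65.7 TPM with IL-21 and 114, 99.0 and 74.1 TPM with both. After 24 h it stood at 25.9, 22.8 and 36.4 TPM, 103, 30.1 and 18.4 TPM, 70.0, 89.2 and 42.1 TPM, and 91.4, 94.5 and 96.2 TPM in the same order. Groups with IL-21 lay above anti-CD40 alone at 24 h, and the IL-4 group overlapped it.

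Scd1 (chr19:44394455-44407879), a stearoyl-CoA desaturase, was the member with the highest naive level, at 255, 206 and 196 TPM. At 6 h it stood at 96.0, 77.4 and 68.8 TPM with anti-CD40, 140, 96.6 and 85.2 TPM with IL-4, 59.8, 49.6 and 45.9 TPM with IL-21 and 82.1, 54.6 and 50.9 TPM with both. By 24 h it stood at 196, 146 and 243 TPM, 143, 63.1 and 27.6 TPM, 172, 196 and 88.2 TPM, and 110, 129 and 116 TPM in the same order. All 6 h libraries were below the naive ones. With anti-CD40 alone the 24 h libraries overlapped the naive range.

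Scd2 (chr19:44293674-44306864), its neighbour and paralog, stood at 21.9, 12.7 and 11 TPM in naive cells. After 6 h it stood at 12.6, 8.76 and 8.71 TPM with anti-CD40, 20.5, 12.7 and 11.1 TPM with IL-4, 6.56, 6.43 and 4.73 TPM with IL-21 and 7.44, 4.71 and 4.65 TPM with both. At 24 h it stood at 15.4, 13.0 and 19.8 TPM, 67.7, 26.0 and 19.4 TPM, 14.9, 20.4 and 11.7 TPM, and 47.5, 53.9 and 51.9 TPM in the same order. At 24 h the group with both cytokines lay above those without IL-4, while the IL-4 group was spread widely and overlapped them at its lowest library. Scd1 was not higher with IL-4 at 24 h. The paralogs are similar in sequence, and how shared reads were divided was not tested.

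Insig1, which holds SCAP back, never exceeded 2.25 TPM. It stood at 0.654, 0 and 0.433 TPM in naive cells and, at 6 h, at 2.25, 0.757 and 1.23 TPM with anti-CD40, 1.38, 2.11 and 0.777 TPM with IL-4, 0.490, 0.414 and 0.184 TPM with IL-21 and 1.69, 0.562 and 1.01 TPM with both. After 24 h it stood at 1.65, 1.16 and 1.86 TPM, 1.51, 0.779 and 1.97 TPM, 1.09, 2.10 and 0.833 TPM, and 0.5, 2.13 and 1.66 TPM in the same order. The 6 h IL-21 libraries lay below every other cultured library and overlapped the naive ones.

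Srebf2, the factor that drives sterol enzymes, stood at 107, 57.3 and 43.6 TPM in naive cells. By 6 h it stood at 123, 69.3 and 82.2 TPM with anti-CD40, 149, 92.0 and 83.1 TPM with IL-4, 80.2, 48.9 and 62.3 TPM with IL-21 and 112, 82.6 and 70.3 TPM with both. By 24 h it stood at 142, 122 and 163 TPM, 153, 62.5 and 45.5 TPM, 150, 202 and 92.0 TPM, and 121, 127 and 129 TPM in the same order. At 6 h the groups overlapped the naive range, and the 24 h libraries with anti-CD40 alone or with both cytokines lay above it.

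Srebf1, the factor that leans towards fatty acid enzymes and is itself an LXR target, stood at 27.9, 9.98 and 10.7 TPM in naive cells. At 6 h it stood at 17.4, 9.17 and 9.87 TPM with anti-CD40, 21.4, 10.7 and 8.96 TPM with IL-4, 12, 5.72 and 8.18 TPM with IL-21 and 18.5, 8.69 and 4.45 TPM with both. At 24 h it stood at 29.7, 25.5 and 40.0 TPM, 44.5, 21.7 and 13.4 TPM, 48.0, 63.3 and 29.3 TPM, and 45, 41.5 and 37.4 TPM in the same order. Within the anti-CD40, IL-21 and combined groups every 24 h library exceeded every 6 h library.

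Abca1 (chr4:53030787-53159895), which exports cholesterol to lipid-poor apolipoprotein, stood at 8.77, 9.30 and 10.1 TPM in naive cells. After 6 h it stood at 3.71, 3.78 and 3.72 TPM with anti-CD40, 0.312, 0.459 and 0.212 TPM with IL-4, 1.10, 1.18 and 0.899 TPM with IL-21 and 0.341, 0.201 and 0.287 TPM with both. After 24 h it stood at 2.80, 2.82 and 3.98 TPM, 0.0963, 0.0555 and 0.0308 TPM, 0.466, 0.197 and 0.0653 TPM, and 0.0731, 0.0710 and 0.165 TPM in the same order. Naive, anti-CD40 and any cytokine group formed 3 levels that did not overlap at either time.

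Abcg1 (chr17:31057675-31117988), which exports cholesterol to lipoprotein particles, stood at 11.3, 7.48 and 5.31 TPM in naive cells. By 6 h it stood at 0.725, 0.544 and 0.386 TPM with anti-CD40, 0.368, 0.240 and 0.287 TPM with IL-4, 0.424, 0.107 and 0.397 TPM with IL-21 and 0.151, 0.180 and 0.169 TPM with both. By 24 h it stood at 0.703, 3.26 and 1.47 TPM, 2.10, 1.27 and 0.981 TPM, 0.701, 1.18 and 0.703 TPM, and 7.34, 4.98 and 7.63 TPM in the same order. The 24 h group with both cytokines reached the naive range, and every other cultured library lay below it. Mylip was listed at 0.484, 0 and 0.297 TPM in naive cells, at 0 in every 6 h library with IL-4, alone or with IL-21, and in every 24 h library with both cytokines, and at 0.457 TPM or less elsewhere.

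**Figure D2:**
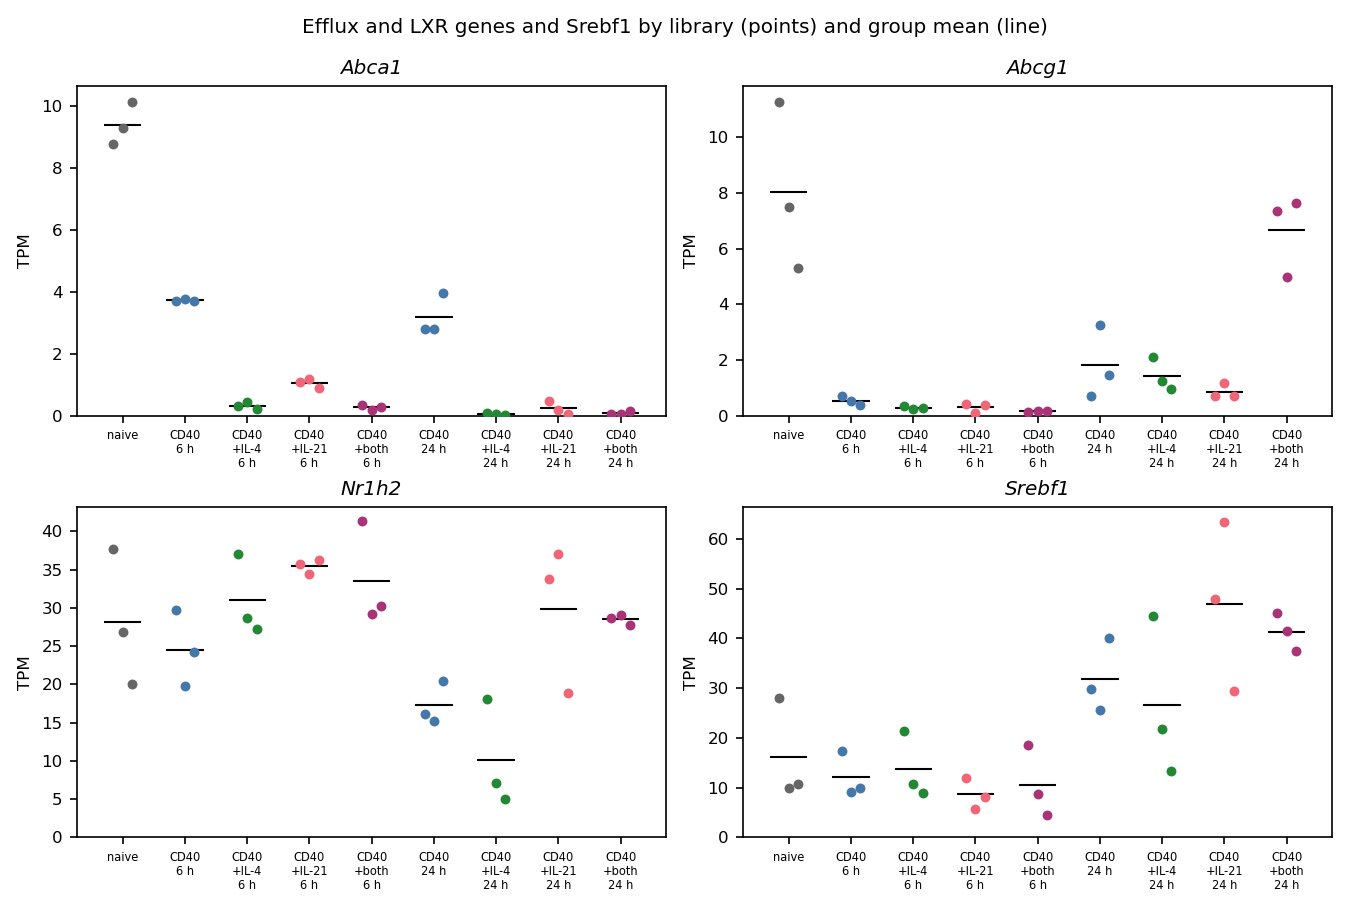
TPM on linear axes from 0 for Abca1, Abcg1, the LXR gene Nr1h2 and Srebf1 in the 9 groups, with points for libraries and lines for group means. Abca1 was lowest in the cytokine groups, while Abcg1 with both cytokines at 24 h, at 4.98 to 7.63 TPM, overlapped the naive libraries.

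With anti-CD40 at 6 h against naive cells, the sterol pathway was higher and both exporters were lower. Of the 35 tested members 13 rose and 3 fell, where 16.6% of all tested genes rose and 13.3% fell. The 13 were 11 of 18 sterol genes, Fasn among 8 fatty acid genes and Stard4, a sterol carrier, among 6 control genes. The median difference was 0.71 over the synthesis genes and 0.06 over all tested genes. In bulk RNA, fewer cells of a type and less RNA per cell cannot be told apart.

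Idi1 rose most at 6 h, by 3.10 ± 0.16 (adjusted p = 3.36e-12), an 8.78-fold ratio of mean TPM. Hmgcs1 rose by 2.50 ± 0.30 (adjusted p = 6.48e-07). Mvk, the mevalonate kinase, rose by 2.23 ± 0.27 (adjusted p = 7.43e-07), from 1.01 to 1.81 TPM in naive cells to 9.16 to 10.6 TPM. Cyp51 rose by 2.15 ± 0.18 (adjusted p = 3.37e-09). The enzymes on either side of farnesyl pyrophosphate, Fdps and Fdft1, rose by 2.11 ± 0.39 and 2.03 ± 0.27. Neither Srebf2 (0.46 ± 0.38, adjusted p = 0.411) nor Srebf1 (-0.29 ± 0.47, adjusted p = 0.714) passed the test at this time, and Sqle (0.63 ± 0.30, adjusted p = 0.123) and Insig1 (0.81 ± 0.31, adjusted p = 0.0527) did not either. Scd2 differed by -0.51 ± 0.34 (adjusted p = 0.296).

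The 3 falls were Abcg1, by 2.49 ± 0.27 (adjusted p = 2.34e-07), Scd1, by 1.43 ± 0.38 (adjusted p = 0.00602), and Abca1, by 1.13 ± 0.16 (adjusted p = 5.20e-06). In TPM, Abcg1 was 14.5-fold and Abca1 2.52-fold lower. Macrophage and monocyte markers fell with them, to 7.19 to 7.92 TPM at 6 h. None of the 8 was at 0 in all 3 of these libraries, and their part in the result was not tested. Nr1h2, the LXR gene of the list, differed by -0.16 ± 0.31 (adjusted p = 0.763). The call of Sc5d, a late desaturase of the sterol ring, was lost without anti-CD40 replicate 1 (adjusted p = 0.12) or naive replicate 2 (adjusted p = 0.0811); the other 15 calls were kept in each alternative fit that tested them.

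At 24 h with anti-CD40, 18 members were higher than in naive cells and 2 were lower, against 18.9% and 7.85% of all tested genes. The 18 were 12 sterol genes, 2 fatty acid genes and 4 control genes. The synthesis median was 0.94 and that of all genes 0.25. Acaca, the carboxylase that makes malonyl-CoA, rose most, by 2.15 ± 0.39 (adjusted p = 0.00028), from 0.0442, 0.0553 and 0.0962 TPM to 4.39, 2.15 and 5.25 TPM. Next came Fdps, by 2.11 ± 0.39 (adjusted p = 0.000342), Mvk, by 1.97 ± 0.27 (adjusted p = 8.13e-06), and Idi1, by 1.70 ± 0.16 (adjusted p = 4.93e-08).

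Hmgcs1 and Cyp51 each rose by 1.32 (± 0.30 and ± 0.18; adjusted p = 0.00206 and 7.50e-06). In the control group Insig2, Stard4, Srebf2 and Insig1 rose, by 1.43 ± 0.39, 1.25 ± 0.29, 1.12 ± 0.38 and 0.93 ± 0.31. The falls were again Abcg1, by 1.73 ± 0.27 (adjusted p = 5.86e-05), and Abca1, by 1.32 ± 0.16 (adjusted p = 1.32e-06). Not passing were Fasn (1.02 ± 0.41, adjusted p = 0.071), Srebf1 (1.06 ± 0.47, adjusted p = 0.0984), Sqle (0.52 ± 0.30, adjusted p = 0.21), Scd1 (-0.19 ± 0.38, adjusted p = 0.764) and Scd2 (0.12 ± 0.34, adjusted p = 0.841).

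Of these 20 calls 9 were lost when some single library was left out, at adjusted p of 0.0523 to 0.192: Elovl6, Fdft1, Hsd17b7, Insig1, Insig2, Nsdhl, Sc5d, Srebf2 and Tm7sf2. The count fell to 13 without anti-CD40 replicate 3, naive replicate 2 or naive replicate 3. The share of all tested genes called higher fell too, from 18.9% to 11.5%, 11.3% and 12.6%.

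**Figure D3:**
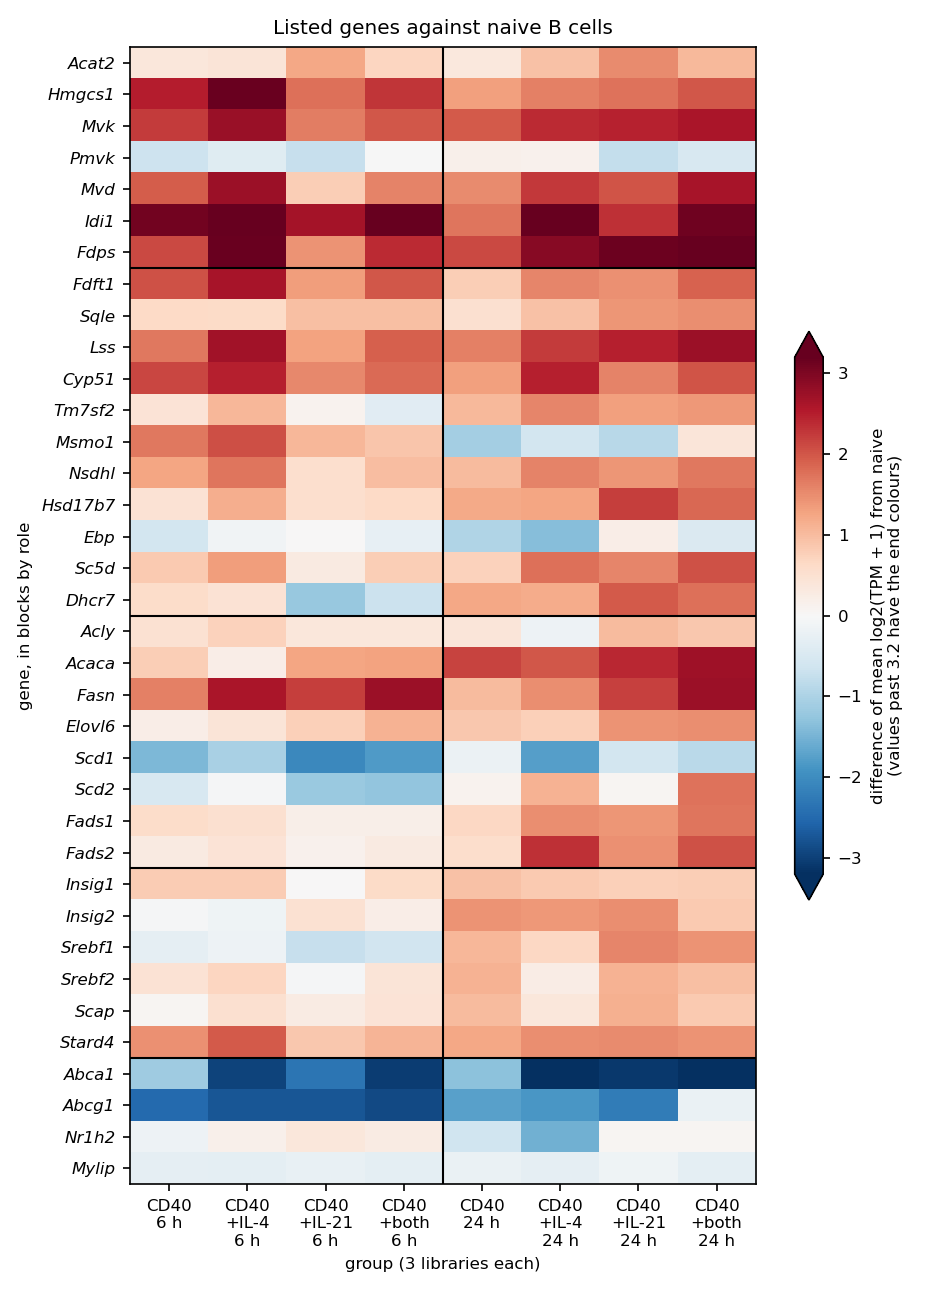
Colour map of the difference of mean log2(TPM + 1) from naive cells for the 36 genes (vertical, in blocks by role) in the 8 cultured groups (horizontal, 6 h left and 24 h right of the line; 3 libraries each). The mevalonate and ring blocks are mostly red, with Idi1 at 3.10 for anti-CD40 at 6 h, and Abca1 is blue throughout; values past 3.2 take the end colours.

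Between 6 h and 24 h of anti-CD40 alone, 5 members rose and 5 fell, where 16.1% of all tested genes rose and 8.17% fell. All 5 falls were sterol enzymes. Msmo1, the sterol methyl oxidase, fell by 2.79 ± 0.44 (adjusted p = 7.64e-05), from 29.8, 40.0 and 31.9 TPM to 4.43, 2.86 and 5.04 TPM. Idi1 fell by 1.39 ± 0.16 (adjusted p = 1.70e-06), Fdft1 by 1.24 ± 0.27 (adjusted p = 0.00158), Hmgcs1 by 1.19 ± 0.30 (adjusted p = 0.00526) and Cyp51 by 0.83 ± 0.18 (adjusted p = 0.00154).

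The rises were Insig2, by 1.46 ± 0.39 (adjusted p = 0.00902), Acaca, by 1.36 ± 0.39 (adjusted p = 0.0143), Srebf1, by 1.35 ± 0.47 (adjusted p = 0.039), Scd1, by 1.25 ± 0.38 (adjusted p = 0.0205), and Abcg1, by 0.76 ± 0.27 (adjusted p = 0.0466). Abcg1 overlapped between the times. The 5 falls were kept in each alternative. The 5 rises were each lost without at least 1 library, at adjusted p of up to 0.288. Without anti-CD40 24 h replicate 3 only 6 calls remained, 1 of them a rise, where 9.24% of all tested genes were higher and 7.22% lower.

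IL-4 added to anti-CD40 for 6 h changed 2 members by the test: Idi1 rose by 0.82 ± 0.16 (adjusted p = 0.00208) and Abca1 fell by 1.84 ± 0.16 (adjusted p = 3.30e-08), 11.4-fold in mean TPM. Of all tested genes 1.65% rose and 2.40% fell. The synthesis genes leaned upward, with 22 of 26 above 0 and a median of 0.46 against 0.02 over all genes, but only Idi1 passed. Among the panel, Hmgcs1 differed by 0.67 ± 0.30 (adjusted p = 0.337), Fasn by 1.00 ± 0.41 (adjusted p = 0.284), Scd2 by 0.49 ± 0.34 (adjusted p = 0.71) and Abcg1 by -0.25 ± 0.27 (adjusted p = 0.87). With rescaled libraries (median of ratios) Idi1 lost its call (adjusted p = 0.0644), and 5 others were called higher: Lss, Fasn, Mvd, Hmgcs1 and Fdft1. Of all tested genes 328 were then higher, from 200.

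After 24 h, IL-4 had raised 7 members and lowered 3, against 8.28% and 23.1% of all tested genes. The largest rise was Idi1, by 2.46 ± 0.16 (adjusted p = 3.58e-10), 5.69-fold in mean TPM. Fads2 (chr19:10062765-10101746), the delta-6 desaturase, rose by 1.78 ± 0.28 (adjusted p = 5.84e-05), from 0.730, 0.913 and 0.918 TPM to 11, 4.12 and 3.19 TPM. Cyp51 rose by 1.16 ± 0.18 (adjusted p = 3.97e-05) and Sc5d by 1.01 ± 0.27 (adjusted p = 0.00726). Scd2, Fads1 and Fdft1 rose by 1.00 ± 0.34, 0.81 ± 0.28 and 0.76 ± 0.27, with adjusted p of 0.0312, 0.0316 and 0.0334.

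The members lowered by IL-4 at 24 h were Abca1, by 1.97 ± 0.16 (adjusted p = 4.48e-09), Scd1, by 1.58 ± 0.38 (adjusted p = 0.00329), and Nr1h2, by 0.89 ± 0.31 (adjusted p = 0.0346). The 2 stearoyl-CoA desaturase genes thus passed the test in opposite directions. Abcg1 (-0.12 ± 0.27, adjusted p = 0.783), Srebf2 (-0.89 ± 0.38, adjusted p = 0.0767), Srebf1 (-0.39 ± 0.47, adjusted p = 0.569), Hmgcs1 (0.29 ± 0.30, adjusted p = 0.491) and Fasn (0.46 ± 0.41, adjusted p = 0.423) did not pass. B cell markers were lower in this group, at 1820 to 2400 TPM against 3310 to 3640 TPM with anti-CD40 alone, and markers of dividing cells were higher, at 171 to 256 TPM against 66.3 to 111 TPM. Their part in the result was not tested.

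The 24 h IL-4 result leans on a library that stood apart. Without it and naive replicate 1, 4 members were higher (Idi1, Fads2, Cyp51 and Sc5d) and 6 lower (Acly, Scap, Nr1h2, Srebf2, Abca1 and Scd1), and the synthesis median went from 0.51 to 0.15; of all genes 9.34% were then higher and 39.9% lower. Without IL-4 24 h replicate 1 alone Fads1, Fdft1 and Scd2 were no longer called (adjusted p = 0.221, 0.219 and 0.196), and Nr1h2 was lost without any of 4 other libraries (up to 0.249). Rescaling moved the other way, to 16 higher and 2 lower, as it brought the median of all genes from -0.31 to -0.02. Idi1, Cyp51 and Abca1 kept their calls in each fit. The other calls, those of Fads2, Sc5d and Scd1 among them, were each lost in some fit. With only the compared groups fitted, 3 members were called, where calls over all tested genes fell from 3816 to 913.

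**Figure D4:**
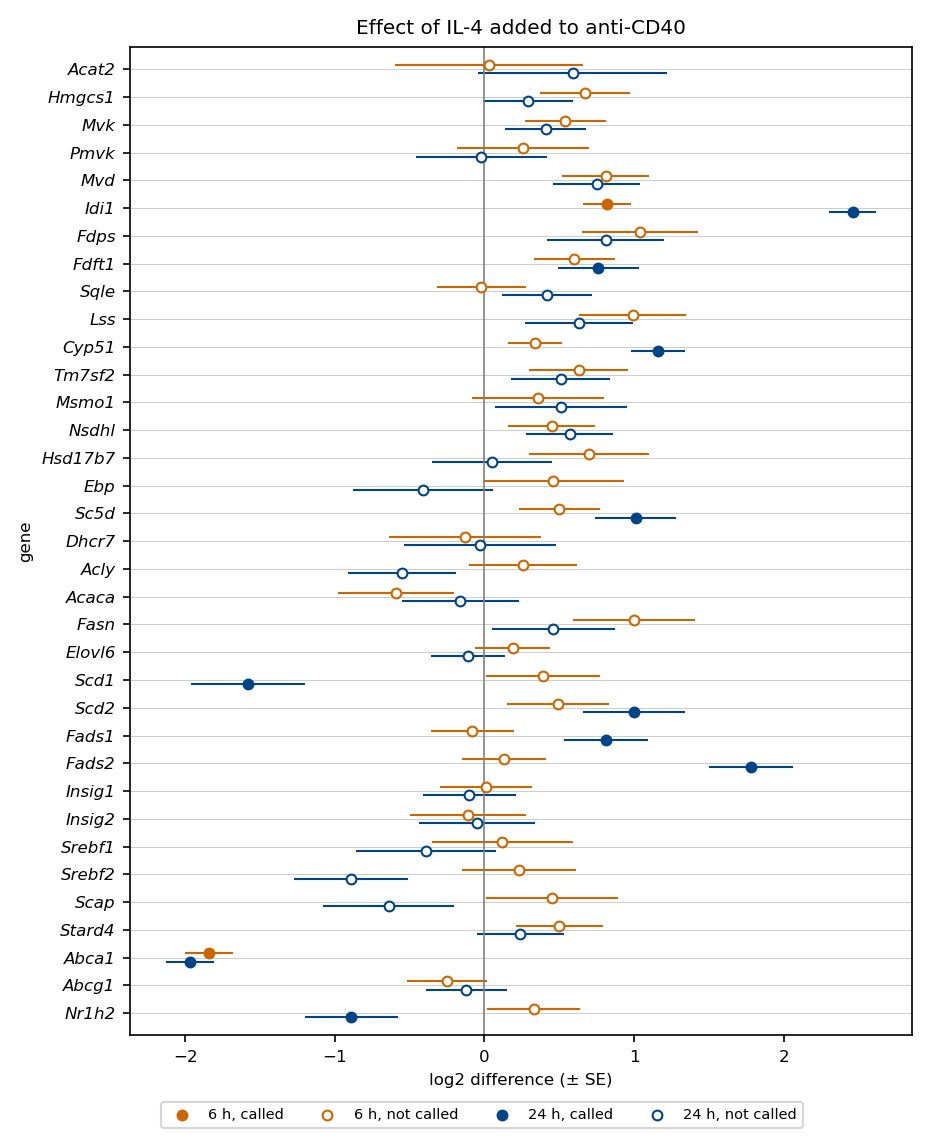
Log2 difference ± SE (horizontal) on adding IL-4 to anti-CD40 at 6 h (orange) and 24 h (blue) for the 35 tested genes (vertical), filled where called. Idi1 at 24 h (2.46) lies farthest right, and Abca1 lies near -1.9 at both times.

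The effect of IL-4 differed between the times for 3 members in a direct test: it became more positive for Fads2, by 1.65 ± 0.40 (adjusted p = 0.0146), and for Idi1, by 1.64 ± 0.23 (adjusted p = 0.000183), and more negative for Scd1, by 1.97 ± 0.54 (adjusted p = 0.0302). Of all tested genes 2.12% and 5.07% changed in these directions. Without IL-4 24 h replicate 1 the count was 10, with 3 higher and 7 lower, against 5.3% and 26.7% of all genes. Idi1 kept this call in each fit, while Scd1 lost it without any of 8 single libraries (adjusted p of 0.0531 to 0.0946).

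From 6 h to 24 h with anti-CD40 and IL-4, 6 members rose and 5 fell, against 8.82% and 16.6% of all genes. The largest rises were Fads2, by 1.91 ± 0.28 (adjusted p = 3.54e-05), Acaca, by 1.78 ± 0.39 (adjusted p = 0.00202), Insig2, by 1.52 ± 0.39 (adjusted p = 0.00666), and Scd2, by 1.14 ± 0.34 (adjusted p = 0.0184). Msmo1 fell by 2.63 ± 0.44 (adjusted p = 0.000144), Nr1h2 by 1.69 ± 0.31 (adjusted p = 0.000412), Hmgcs1 by 1.57 ± 0.30 (adjusted p = 0.000511) and Fasn by 1.14 ± 0.41 (adjusted p = 0.047). Only Acaca and Msmo1 kept their calls in each fit, and 5 calls were lost without some single library, Fasn and Scd2 among them. Without IL-4 6 h replicate 3 the count was 7, where 6.54% of all genes were higher and 12.6% lower. Without IL-4 24 h replicate 1, 4 members were higher and 12 lower, against 9.66% and 30.0% of all genes.

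At 6 h, adding IL-21 to anti-CD40 lowered 4 members and raised none, where 4.68% of all tested genes fell and 7.43% rose. Dhcr7, the last reductase of the sterol pathway, fell by 1.79 ± 0.51 (adjusted p = 0.0225), from 10.3, 7.14 and 5.81 TPM to 3.54, 0 and 2.32 TPM. Abca1 fell by 1.21 ± 0.16 (adjusted p = 1.11e-05), 3.53-fold in mean TPM. Mvd, the mevalonate decarboxylase, fell by 1.13 ± 0.29 (adjusted p = 0.012), from 28.9, 24.1 and 33.4 TPM to 13.0, 9.52 and 15.7 TPM. Cyp51 fell by 0.61 ± 0.18 (adjusted p = 0.0251).

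Of the synthesis genes 19 of 26 lay below 0 with IL-21 at 6 h, with a median of -0.42 against 0.10 over all genes. Those not called include Hmgcs1 (-0.74 ± 0.30, adjusted p = 0.116), Insig1 (-0.78 ± 0.31, adjusted p = 0.113) and, in the other direction, Fasn (0.60 ± 0.41, adjusted p = 0.424). Rescaling raised the count to 11, all lower, where 919 of all tested genes were lower, from 568. Only Abca1 kept its call without any single library: Cyp51, Dhcr7 and Mvd were lost without 4, 3 and 2 of the 6, at adjusted p of 0.0524 to 0.181. Without anti-CD40 replicate 1 or 2 or IL-21 replicate 2, 2 calls remained, where 2.94%, 3.93% and 3.19% of all tested genes were lower. The summed B cell markers were also lowest in this group, and their part in the result was not tested.

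At 24 h the direction had changed: IL-21 raised 5 members and lowered 1, against 17.8% and 6.33% of all tested genes. Fasn rose by 1.18 ± 0.41 (adjusted p = 0.0414), Fads2 by 0.91 ± 0.28 (adjusted p = 0.0207), Sqle by 0.89 ± 0.30 (adjusted p = 0.0313) and Sc5d by 0.82 ± 0.27 (adjusted p = 0.0308). Idi1, the fifth, rose by 0.63 ± 0.16 (adjusted p = 0.00569). Abca1 fell by 1.76 ± 0.16 (adjusted p = 2.07e-08), 13.2-fold in mean TPM. The share of members that rose, 5 of 35, was close to that of all genes.

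The synthesis median with IL-21 at 24 h was 0.63 against 0.23 over all genes, with 23 of 26 above 0. Panel members not called were Hmgcs1 (0.41 ± 0.30, adjusted p = 0.335), Srebf1 (0.50 ± 0.47, adjusted p = 0.467), Srebf2 (-0.01 ± 0.38, adjusted p = 0.996), Scd1 (-0.41 ± 0.38, adjusted p = 0.471), Scd2 (-0.05 ± 0.34, adjusted p = 0.944) and Abcg1 (-0.50 ± 0.27, adjusted p = 0.196). B cell markers summed to 1410 to 1920 TPM in this group. Markers of dividing cells (6 genes) summed to 440 to 547 TPM in this group and 66.3 to 111 TPM with anti-CD40 alone, and their part in the result was not tested.

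Calls at 24 h depended on single libraries. Without IL-21 replicate 3, 13 members were called, where 17.6% of all genes were higher and 5.63% lower. Only 2 were called without IL-21 replicate 1 or 2, and 3 without anti-CD40 replicate 2. The share of all genes called higher was then 13.8%, 13.5% and 11.4%. Rescaling took the Idi1 call away (adjusted p = 0.295) and lowered the synthesis median to 0.37. Abca1 kept its call in each fit.

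**Figure D5:**
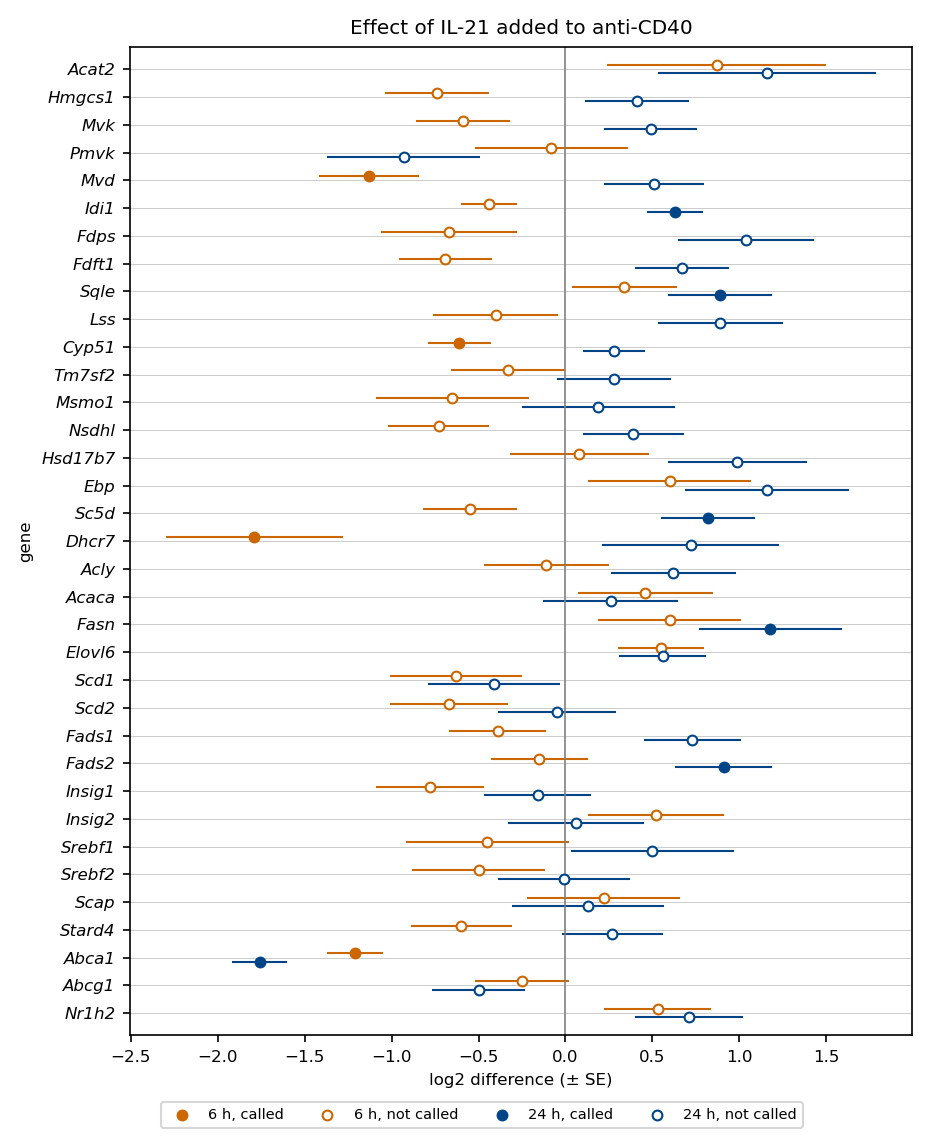
Log2 difference ± SE (horizontal) on adding IL-21 to anti-CD40 at 6 h (orange) and 24 h (blue) for the 35 tested genes (vertical), filled where called. Most sterol genes lie left of 0 at 6 h and right of it at 24 h, and Abca1 lies left at both times (-1.21 and -1.76).

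In the direct test of that change, 6 members passed, all sterol genes and all in the positive direction, where 3.10% of all tested genes were higher and 1.34% lower. The change was 2.51 ± 0.72 for Dhcr7 (adjusted p = 0.0495), 1.64 ± 0.42 for Mvd (adjusted p = 0.023), 1.37 ± 0.38 for Sc5d (adjusted p = 0.0421), 1.35 ± 0.38 for Fdft1 (adjusted p = 0.0411), 1.08 ± 0.23 for Idi1 (adjusted p = 0.00555) and 0.89 ± 0.25 for Cyp51 (adjusted p = 0.0443). Over the 18 sterol genes 17 changes lay above 0, with a median of 1.08 against 0.12 over all genes. These adjusted p values are near the threshold. Leaving out a library took the count to between 1 and 3, except for anti-CD40 24 h replicate 3, IL-21 6 h replicate 1 and IL-21 24 h replicate 3, where it was 4, 5 and 6. Idi1 was the only member not lost by leaving out a library, and it was lost on rescaling (adjusted p = 0.145).

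From 6 h to 24 h with anti-CD40 and IL-21, 17 members rose and 2 fell, against 26.2% and 9.30% of all genes. Dhcr7 rose by 3.16 ± 0.51 (adjusted p = 4.85e-05), Srebf1 by 2.30 ± 0.47 (adjusted p = 0.000531), Fdps by 1.71 ± 0.39 (adjusted p = 0.0016) and Hsd17b7, a sterol ketone reductase, by 1.65 ± 0.40 (adjusted p = 0.00246). Scd1 (1.46 ± 0.38), Fads2 (1.32 ± 0.28), Scd2 (1.25 ± 0.34) and Srebf2 (1.16 ± 0.38) rose too. The falls were Msmo1, by 1.95 ± 0.44 (adjusted p = 0.00137), and Abca1, by 0.74 ± 0.16 (adjusted p = 0.00074). Of these 19 calls 6 were lost without some single library (Acaca, Elovl6, Lss, Mvk, Nsdhl and Srebf2; up to 0.22).

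Where IL-4 was present as well, IL-21 at 6 h lowered 4 members and raised none, against 1.28% and 1.25% of all tested genes. Tm7sf2, a sterol reductase, fell by 1.43 ± 0.33 (adjusted p = 0.0155), from 2.42, 2.69 and 3.30 TPM to 0, 0.721 and 0.595 TPM. Mvd fell by 1.15 ± 0.29 (adjusted p = 0.0338), Cyp51 by 0.67 ± 0.18 (adjusted p = 0.0444) and Idi1 by 0.65 ± 0.16 (adjusted p = 0.0262). The synthesis median was -0.65 against 0.06 over all genes, and 20 of 26 lay below 0. Mvd and Cyp51 were called lower by IL-21 at 6 h both with and without IL-4; these comparisons use separate libraries.

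Abca1 was already low with IL-4, and IL-21 did not change it further by the test (-0.05 ± 0.16, adjusted p = 0.967). Scd2 differed by -1.23 ± 0.34 (adjusted p = 0.0609), and passed with the replicate number as a block. None of the 4 calls survived the loss of every single library: each was lost without 3 to 6 of the 6, with 0 remaining without IL-4 replicate 2, 1 without IL-4 replicate 1 or 3 or replicate 1 or 2 of the combined group, and 2 without its replicate 3. Over all tested genes 1.85% to 2.06% were called in the fits without 1 library. Rescaling raised the count to 9, all lower, where 328 of all tested genes were lower, from 156.

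At 24 h with IL-4, IL-21 raised 5 members and lowered 1, against 21.8% and 2.39% of all tested genes. Abcg1 rose by 1.65 ± 0.27 (adjusted p = 0.000177), 4.59-fold in mean TPM, and Nr1h2 by 1.59 ± 0.31 (adjusted p = 0.00108), from 18.1, 7.13 and 5.07 TPM to 28.6, 29.1 and 27.8 TPM. Fatty acid genes made up the rest: Fasn by 1.26 ± 0.41 (adjusted p = 0.0317), Acly, the citrate lyase that supplies acetyl-CoA, by 1.05 ± 0.36 (adjusted p = 0.0409), and Elovl6, an elongase, by 0.73 ± 0.25 (adjusted p = 0.039). Idi1 fell by 1.05 ± 0.16 (adjusted p = 6.47e-05). No sterol gene rose by the test, and the synthesis median of 0.45 was close to the 0.38 of all genes.

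This comparison uses the 24 h IL-4 library that stood apart, and with it the result changed most. Without IL-4 replicate 1, 23 members were called, 22 of them higher, while the share of all tested genes called higher also rose, from 21.8% to 41.1%. Without IL-4 replicate 2 or 3, or replicate 2 or 3 of the combined group, 3 were called. The share of all tested genes called higher was then lower too, at 7.76%, 6.53%, 11.6% and 11.7%. After rescaling, 2 were higher (Abcg1 and Nr1h2) and 4 lower (Idi1, Cyp51, Fads2 and Stard4), and the synthesis median changed sign to -0.08. Of all tested genes 1273 were then higher and 1291 lower, from 2651 and 290. Acly, Fasn and Elovl6 were each lost without 4 or 5 single libraries, at adjusted p of up to 0.304. Abcg1 kept its call in each fit.

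The interaction of the cytokines asks whether IL-21 acted differently in the presence of IL-4. At 6 h 1 member passed, Abca1, with a difference of 1.15 ± 0.22 (adjusted p = 0.0169); 0.148% of all tested genes were higher and 0.263% lower. It was lost with a pseudocount of 0.1 (adjusted p = 0.473) and without IL-4 replicate 3 or replicate 1 of the combined group (0.064 and 0.0585). At 24 h 3 members passed, against 3.33% and 2.48% of all genes: Abcg1 by 2.15 ± 0.39 (adjusted p = 0.00144), Abca1 by 1.81 ± 0.22 (adjusted p = 2.19e-05) and Idi1 by -1.69 ± 0.23 (adjusted p = 7.14e-05). All 3 kept their calls in each fit, and without IL-4 24 h replicate 1 there were 6, with 15.9% of all genes higher and 4.37% lower. Either cytokine alone left Abca1 at 0.466 TPM or less at 24 h, and both together gave no lower range than IL-4 alone. At both times the falls of Abca1 with each cytokine alone add up to more than its log2(TPM + 1) with anti-CD40. The scale has a floor that such a sum would pass, so a positive interaction was set in advance. For Abca1 the test therefore cannot decide whether IL-21 acted differently with IL-4.

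IL-4 added to anti-CD40 and IL-21 was compared with anti-CD40 and IL-21 alone, which is a simple difference and not the interaction. At 6 h Idi1 rose by 0.62 ± 0.16 (adjusted p = 0.025) and Abca1 fell by 0.69 ± 0.16 (adjusted p = 0.00931), against 1.27% and 2.89% of all genes; Idi1 was lost without any of 4 libraries and Abca1 without IL-21 replicate 2, which left 0 calls. The count was 1 without IL-21 replicate 1 or replicate 2 or 3 of the combined group. At 24 h 3 members rose and none fell, against 2.22% and 4.53% of all genes. They were Abcg1, by 2.03 ± 0.27 (adjusted p = 1.99e-05), Scd2, by 1.67 ± 0.34 (adjusted p = 0.00278), and Idi1, by 0.78 ± 0.16 (adjusted p = 0.00292). All 3 kept their calls in each fit, and this 24 h comparison uses none of the 4 libraries that stood apart.

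The effect of IL-21 in the presence of IL-4 also changed between the times, for 3 members, where 3.66% and 0.576% of all genes were higher and lower. The changes were 1.87 ± 0.49 for Scd2 (adjusted p = 0.0291), 1.80 ± 0.39 for Abcg1 (adjusted p = 0.00779) and 1.52 ± 0.42 for Mvd (adjusted p = 0.0386). Abcg1 kept its call in each fit. Without IL-4 24 h replicate 1 the count was 22, with 25.9% of all genes higher and 2.17% lower, and it was 1 without IL-4 6 h replicate 1, IL-4 24 h replicate 2 or 3, or the combined group at 6 h replicate 3 or at 24 h replicate 1, 2 or 3.

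From 6 h to 24 h with anti-CD40 and both cytokines, 12 members rose and none fell, against 20.8% and 9.46% of all genes. Scd2 rose by 3.01 ± 0.34 (adjusted p = 6.46e-07), 9.13-fold in mean TPM, and Abcg1 by 2.69 ± 0.27 (adjusted p = 1.25e-07), 39.9-fold. Dhcr7 rose by 2.46 ± 0.51 (adjusted p = 0.000805) and Srebf1 by 2.06 ± 0.47 (adjusted p = 0.00178). Of these 12 calls 3 were lost without some single library, Acaca, Fdps and Hsd17b7 (up to 0.131).

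Synthesis and efflux can be set side by side as sums per library. The 18 sterol genes summed to 85.0 to 146 TPM in naive libraries, 532 to 542 TPM with anti-CD40 at 6 h and 240 to 305 TPM at 24 h. With IL-4 they summed to 844 to 861 TPM at 6 h and 645 to 838 TPM at 24 h, with IL-21 to 329 to 374 TPM and 374 to 465 TPM, and with both to 484 to 531 TPM and 538 to 582 TPM. The IL-4 groups lay above all others at both times without overlap. At 6 h the IL-21 libraries lay below anti-CD40 alone and at 24 h above it, again without overlap.

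Abca1 and Abcg1 together came to 15.5 to 20.0 TPM in naive libraries, 4.10 to 4.44 TPM with anti-CD40 at 6 h and 3.5 to 6.07 TPM at 24 h. With IL-4 they came to 0.499 to 0.699 TPM and 1.01 to 2.19 TPM, with IL-21 to 1.28 to 1.52 TPM and 0.769 to 1.38 TPM, and with both to 0.382 to 0.492 TPM and 5.05 to 7.80 TPM. The exporter sum lay below anti-CD40 alone in each cytokine group except that with both cytokines at 24 h, where it overlapped; naive libraries, with the lowest sterol sums, had the highest exporter sums. Sums are led by the genes with the highest TPM, Idi1, Hmgcs1 and Cyp51 for sterol and Abcg1 for efflux with both cytokines at 24 h. The fatty acid genes summed to 248 to 354 TPM in naive libraries, mostly Scd1, and to 147 to 326 TPM in the 6 h groups. At 24 h they summed to 230 to 367 TPM with anti-CD40, 415, 155 and 92.5 TPM with IL-4, 356, 426 and 201 TPM with IL-21 and 318 to 381 TPM with both, and each of these ranges overlapped the naive one.

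Members were also ranked by how closely their mean log2 values over the 9 groups followed the mean of the other synthesis genes. Closest were Fdps, Lss and Nsdhl, with Pearson r of 0.99, 0.98 and 0.96, and least alike were Abca1, Pmvk and Scd1, with -0.84, -0.32 and -0.27. This is a description over 9 group means. Pmvk, the phosphomevalonate kinase, was low, at 4.32 TPM or less in every library and at 0 in 4. Ebp and Msmo1 among the ring genes also had values below 0 (-0.26 and -0.07). In GENCODE M21 the genes of Mvd, Fdps, Fdft1, Cyp51, Tm7sf2, Acaca and Srebf1 overlap other annotated genes, and whether the counting used strand is not given in the sources used here.

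Other lipid genes, which are no members, were counted from lists of related pathways. Among 8 tested genes of SREBP processing and sterol sensing, Tmem97, a sterol-responsive membrane protein, rose with anti-CD40 at 6 h by 2.24 ± 0.27 (adjusted p = 1.01e-06) and with IL-4 at 24 h by 1.53 ± 0.27 (adjusted p = 0.00021). In that list 2 genes rose and none fell with anti-CD40 at 6 h (16.6% and 13.3% of all genes), and 1 rose and 2 fell with IL-4 at 24 h (8.28% and 23.1%); these counts are near the shares of all genes. Of 14 tested genes of fatty acid supply and elongation, 4 rose and 1 fell with anti-CD40 at 6 h, among them Hsd17b12 by 1.27 ± 0.20 (adjusted p = 2.67e-05), and none was called with IL-4 at either time. All genes rose at 16.6% and fell at 13.3% in the first of these comparisons.

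Of 6 tested LXR targets and partners, 3 fell and none rose with anti-CD40 at 6 h, against 13.3% and 16.6% of all genes. Smpdl3a, a phosphodiesterase and LXR target, fell by 2.77 ± 0.21 (adjusted p = 6.56e-10), and Pltp, the phospholipid transfer protein, fell by 1.40 ± 0.31 (adjusted p = 0.00105). With IL-4 at 24 h 3 fell, where 23.1% of all genes did, Smpdl3a by 1.93 ± 0.21 (adjusted p = 3.44e-07). With IL-21 at 24 h Pltp rose by 3.99 ± 0.31 (adjusted p = 2.25e-09) while Smpdl3a fell by 1.63 ± 0.21 (adjusted p = 3.70e-06). With IL-21 and IL-4 at 24 h 3 of the 6 rose, where 21.8% of all genes did. Among them were Pltp, by 4.26 ± 0.31 (adjusted p = 1.05e-09), and Abca7, a transporter, by 1.49 ± 0.37 (adjusted p = 0.00767). Pltp and Smpdl3a thus passed in opposite directions with IL-21 at 24 h.

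Fatty acid oxidation, the opposing pathway, had 11 tested genes. Cpt1a, which admits long-chain fatty acid to mitochondria, fell by 2.63 ± 0.28 with anti-CD40 at 6 h (adjusted p = 1.46e-07) and by 1.42 ± 0.28 with IL-4 at 24 h (adjusted p = 0.000573), and rose by 1.77 ± 0.28 with IL-21 in the presence of IL-4 at 24 h (adjusted p = 0.000107). In the list 3 genes rose and 1 fell with anti-CD40 at 6 h (16.6% and 13.3% of all genes) and 1 rose and 1 fell with IL-21 at 24 h (17.8% and 6.33%), which is near the shares of all genes. With IL-21 and IL-4 at 24 h 4 rose, where 21.8% of all genes did. Of 8 tested genes of other isoprenoid branches, Pggt1b, a prenyltransferase subunit, rose with IL-21 at 24 h by 0.93 ± 0.21 (adjusted p = 0.00256) and with IL-21 and IL-4 by 1.31 ± 0.21 (adjusted p = 0.000133). Of all genes 17.8% and 21.8% rose in these comparisons, so a rise of a single gene does not set this list apart.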

How the data were processed

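RNA-seq of 27 libraries was used as a table of TPM per gene, which the authors deposited. It was made with Salmon 1.9.0 on GRCm38, per the submitters' processing notes; the annotation is not given in the sources used here. GENCODE M21 named 35254 of the 35604 gene IDs and gave positions. TPM sums were 766384 to 825365 per library, and TPM keeps no read depth.

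Values were set to log2(TPM + 1) from the deposited TPM. The 12147 genes that reached 1 TPM in 3 or more libraries were fitted with limma 3.58.1 in R 4.3.3, with a mean for each of the 9 groups, a trended variance and 18 residual degrees of freedom, and p-values were adjusted by Benjamini-Hochberg over all tested genes (threshold 0.05). The fit was tested on simulated data. Libraries of a group correlated at 0.927 to 0.982, and 0 pairs were identical.

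The members and lists were chosen with earlier results of these data known. Named were, for each comparison, the called members with the 4 largest rises and 4 largest falls, and 12 panel genes: Hmgcs1, Sqle, Cyp51, Insig1, Srebf1, Srebf2, Fasn, Scd1, Scd2, Abca1, Abcg1 and Mylip. Other lists gave at most 2 genes per direction. The comparisons of IL-4 in the presence of IL-21, the changes of cytokine effects between times, and the fit without replicate 1 of the naive and 24 h IL-4 groups were added after seeing the data.

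Whether replicate numbers pair libraries was checked by the correlation of same-numbered deviations. Every pair exceeded 0.1 for IL-4 at 6 h (0.107 to 0.382), IL-21 at 6 h (0.186 to 0.335) and IL-21 with IL-4 at 6 h (0.183 to 0.377), and not elsewhere. No label pairs the libraries. Alternatives were another pseudocount, other filters, median-of-ratios rescaling, a fit of the compared groups alone, a replicate block, leaving out each library, and leaving out mitochondrial and ribosomal protein genes.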

Additional observations from a re-analysis of the deposited data

Results flagged for a closer look

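These are differences between groups that passed a direct test at an adjusted p below 0.05 (limma), given as log2 differences. IL-21 acted differently with IL-4 present on Abcg1 at 24 h (2.15) and on Idi1 at 24 h (-1.69). Abca1 passed the same test at 6 h (1.15) and 24 h (1.81). With IL-4 it was already near the floor of the scale, so the test cannot decide for this gene.

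The IL-4 effect changed from 6 h to 24 h for Fads2 (1.65), Idi1 (1.64) and Scd1 (-1.97). Without IL-4, what IL-21 did changed between the times for Dhcr7 (2.51), Mvd (1.64), Sc5d (1.37), Fdft1 (1.35), Idi1 (1.08) and Cyp51 (0.89). With IL-4 present, the IL-21 effect changed for Scd2 (1.87), Abcg1 (1.80) and Mvd (1.52). Comparisons at 24 h with IL-4 include replicate 1 of that group, which stood apart.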

How the results depend on the processing

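No called member changed its sign in any alternative, but the balance of calls turned in some. Without IL-4 24 h replicate 1 it went from 7 higher and 3 lower to 4 and 6 for IL-4 at 24 h, and from 6 and 5 to 4 and 12 for time with IL-4. The share of all tested genes called lower rose too, from 23.1% to 38.1% and from 16.6% to 30.0%. On rescaling it went from 5 and 1 to 2 and 4 for IL-21 with IL-4 at 24 h, where the synthesis median went from 0.45 to -0.08. Of all 12147 tested genes those called lower then went from 290 to 1291 and those called higher from 2651 to 1273. Unless all genes are named, counts are of members called, with the count as reported first, and medians are log2 differences. The efflux median is over Abca1, Abcg1 and Nr1h2 only, so it is the value of a single gene. That gene can be Nr1h2, which is no exporter, as for IL-4 at 24 h. Depth is unknown for TPM, so no limit from read counts can be given, and values of genes below about 1 TPM carry little weight on the log2(TPM + 1) scale. Where a value moved and its construction does not show why, the cause was not tested.

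With median-of-ratios rescaling the count moved from 2 to 6 for IL-4 at 6 h, 10 to 18 for IL-4 at 24 h, 4 to 11 for IL-21 at 6 h, 4 to 9 for IL-21 with IL-4 at 6 h, 3 to 5 for the interaction at 24 h, 3 to 7 for IL-4 with IL-21 at 24 h, 3 to 8 for the change of the IL-4 effect and 3 to 5 for that of IL-21 with IL-4. Calls over all 12147 tested genes rose too. In the same order they moved from 491 to 763, 3816 to 4241, 1471 to 1985, 308 to 552, 705 to 1352, 820 to 878, 873 to 1673 and 515 to 787. Efflux medians became -1.28 and -1.60 for anti-CD40 at 6 h and 24 h, -0.48 for IL-4 at 24 h, 1.08 for IL-21 with IL-4 at 24 h and -0.61 for time with IL-21. As reported they were -1.13 (Abca1) for anti-CD40 at 6 h, -0.89 (Nr1h2) for IL-4 at 24 h and 1.59 (Nr1h2) for IL-21 with IL-4 at 24 h. Synthesis medians became 0.37 for IL-21 at 24 h, 0.55 for time with IL-21 and 0.51 for time with both cytokines.

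Fitting only the compared groups gave 7 for IL-4 at 6 h, 3 for IL-4 at 24 h, 3 for IL-21 at 24 h, 7 and 1 for IL-21 with IL-4 at 6 h and 24 h, 2 for time with IL-4, 0 for IL-4 with IL-21 at 6 h, and 1 each for the changes of the IL-4 effect and of IL-21 with IL-4. Over all tested genes the calls in the same order were 535, 913, 2035, 393, 342, 522, 174, 198 and 206. As reported they were 491, 3816, 2936, 308, 2941, 3091, 505, 873 and 515. Without replicate 1 of the naive and 24 h IL-4 groups the counts were 8 for IL-4 at 6 h, 9 and 13 for IL-21 at 6 h and 24 h, 10 and 22 for IL-21 with IL-4, 7 for the interaction at 24 h, 17 for time with IL-4, 4 for IL-4 with IL-21 at 6 h, and 10, 13 and 23 for the changes of the IL-4, IL-21 and IL-21 with IL-4 effects. Called genes rose in number across the table too. In the same order their shares of all genes were 6.32%, 18.6% and 34.1%, 4.62% and 48.5%, 24.8%, 41.9%, 5.28%, and 36.2%, 8.56% and 32.2%. For IL-4 at 24 h, which is not among these counts, the share was 49.2%. The efflux median of IL-4 at 24 h was -1.37.

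Without a filter, which lets Mylip in, the counts were 6 for IL-4 at 24 h, 2 and 3 for IL-21 with IL-4 at 6 h and 24 h, 2 for the change of the IL-21 effect and 1 for that with IL-4. Of the 25430 genes then tested, 3281, 298, 2117, 554 and 416 were called in the same order. Efflux medians were then -0.71 and -0.98 for anti-CD40, -0.14 and -0.50 for IL-4, -0.10 and -0.22 for IL-21 (6 h and 24 h each), 0.82 for IL-21 with IL-4 at 24 h, 1.34 for the interaction at 24 h, -0.05 for time with anti-CD40 and -0.10 for time with IL-21. Without 103 mitochondrial and ribosomal protein genes the count for IL-21 at 24 h was 3, where 2635 of 12047 tested genes were called. Efflux medians were then -1.26 for anti-CD40 at 6 h, -0.40 for IL-4 at 6 h, -0.41 and -0.72 for IL-21 and 2.46 for the interaction at 24 h.

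With a pseudocount of 0.1 the count was 0 for the interaction at 6 h and 2 for the change of the IL-21 effect. Calls over all tested genes went from 50 to 24 and from 539 to 373. Synthesis medians were 1.57 and 1.36 for anti-CD40, -0.63 for IL-21 at 6 h and 0.76 for time with both. Efflux medians were -1.31 and -1.54 for anti-CD40, -0.69 for IL-4 at 6 h, -0.75 and -0.79 for IL-21, -0.16 for IL-21 with IL-4 at 6 h, 0.19 and 2.95 for the interaction and -1.39 for time with IL-4. With a filter at 5 TPM the interaction at 6 h had 0 calls, where 23 of 8860 tested genes were called. Synthesis medians were then 1.62 for anti-CD40 at 6 h, -0.61 for IL-21 at 6 h and -0.24 for time with anti-CD40.

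With the replicate number as a block no call was lost. Counts became 5 for the change of the IL-4 effect and 6 for that of IL-21 with IL-4, while calls over all tested genes went from 873 to 1110 and from 515 to 723. For 23 of 27 libraries, deviations from the group mean correlated best on average with same-numbered libraries of other groups. This is a hint from the data and not from the design. In the 6 h comparisons whose numbers pair, the block added Idi1 for IL-21 and Scd2 for IL-21 with IL-4.

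Leaving out each library gave counts of 13 to 23 for anti-CD40 at 24 h, 2 to 3 and 2 to 13 for IL-21 at 6 h and 24 h, 0 to 2 and 3 to 23 for IL-21 with IL-4, 0 to 1 and 3 to 6 for the interaction, 6 to 8 for time with anti-CD40, 7 to 16 for time with IL-4, 0 to 2 for IL-4 with IL-21 at 6 h, and 2 to 10, 1 to 6 and 1 to 22 for the changes of the IL-4, IL-21 and IL-21 with IL-4 effects. Calls over all tested genes moved as well. Their shares in the same order were 18.1% to 31.1%, 7.73% to 10.4%, 16.9% to 23.3%, 1.85% to 2.06% and 7.92% to 46.4%. For the interaction they were 0.173% to 0.354% and 4.12% to 20.3%, and for time 16.5% to 21.4% and 15.2% to 39.7%. The last were 2.36% to 4.24%, 3.33% to 32.0%, 3.1% to 4.42% and 2.16% to 28.1%. Efflux medians ranged from -0.33 to -0.17 and -1.37 to -0.54 for IL-4, -0.33 to -0.13 and -0.81 to -0.15 for IL-21, 1.24 to 1.83 for IL-21 with IL-4 at 24 h, -0.02 to 0.17 for the interaction at 6 h and -0.47 to 0.00 for time with IL-21. The synthesis median for time with both ranged from 0.61 to 0.76.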
